A study of Mus musculus with 3 samples.

Results

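The 46 genes described here encode proteins that copy DNA in S phase or divide the cell in mitosis. They were chosen as a list of gene symbols, and every array feature that was not a control and carried one of these symbols was taken. All 46 were found, on 74 probes, among the 27665 genes and 41169 probes of the arrays. By textbook role 15 are S-phase genes and 31 are mitotic genes.

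Muscle was taken from male mice, 6 weeks old, after 14 days. The 3 groups were mice that swam and were fed food with 0.5% powder of Chlorella, a green alga (Chlorella swimming), mice that swam on normal food (swimming) and mice that did not swim and ate normal food (nonswimming). RNA of 10 mice was pooled in each group and hybridised to 1 single-colour Agilent array, so each group is 1 measurement and no difference between groups could be tested. The labels do not say which muscle was taken or how long the mice swam each day. All 3 arrays lay on 1 slide and were read in 1 scan. The tissue label matched its markers: 12 of 12 skeletal muscle genes were well above background on every array, and their summed signal was 678370 in Chlorella swimming, 515873 in swimming and 621841 in nonswimming muscle. Here and throughout, a signal is the scanner's processed intensity as a percent of the 75th percentile of its own array, so that a probe at that percentile has a value of 100. The percentile itself was 238 intensity units in Chlorella swimming, 295 in swimming and 286 in nonswimming muscle, and 23448 (Chlorella swimming), 24857 (swimming) and 23842 (nonswimming) probes were well above background.

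Before a cell divides, the MCM proteins are loaded onto replication origins as a ring-shaped helicase, nucleotides are made by enzymes such as ribonucleotide reductase, and DNA is copied along the sliding clamp PCNA. Mitosis then needs cyclins that activate the kinase CDK1, kinases and motor proteins that build the spindle, a checkpoint that waits for attached chromosomes, and a ubiquitin ligase, the anaphase-promoting complex, that ends the division. The genes of the first step are mostly switched on by E2F factors before and during S phase, and those of the second by the MuvB complex with B-MYB and FOXM1 in G2 and mitosis. Nuclei inside adult muscle fibres do not divide, whereas satellite cells, blood cell precursors and other cells between the fibres can.

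The swimming array stood above both others. Of the 46 genes, 38 were well above background on all 3 arrays, and 36 of these 38 had their highest signal on the swimming array. Of the 36, the Chlorella swimming array was the lowest for 24 and the nonswimming array for 12. The median signal over the 46 genes was 14.1 in Chlorella swimming, 63.1 in swimming and 15.8 in nonswimming muscle. The number of genes well above background was 38 (Chlorella swimming), 44 (swimming) and 41 (nonswimming). The 2 genes that did not peak on the swimming array were Rrm1 and Chek1. In pooled tissue RNA, more cells of a dividing type and more of these RNAs per cell cannot be told apart.

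**Figure D1:**
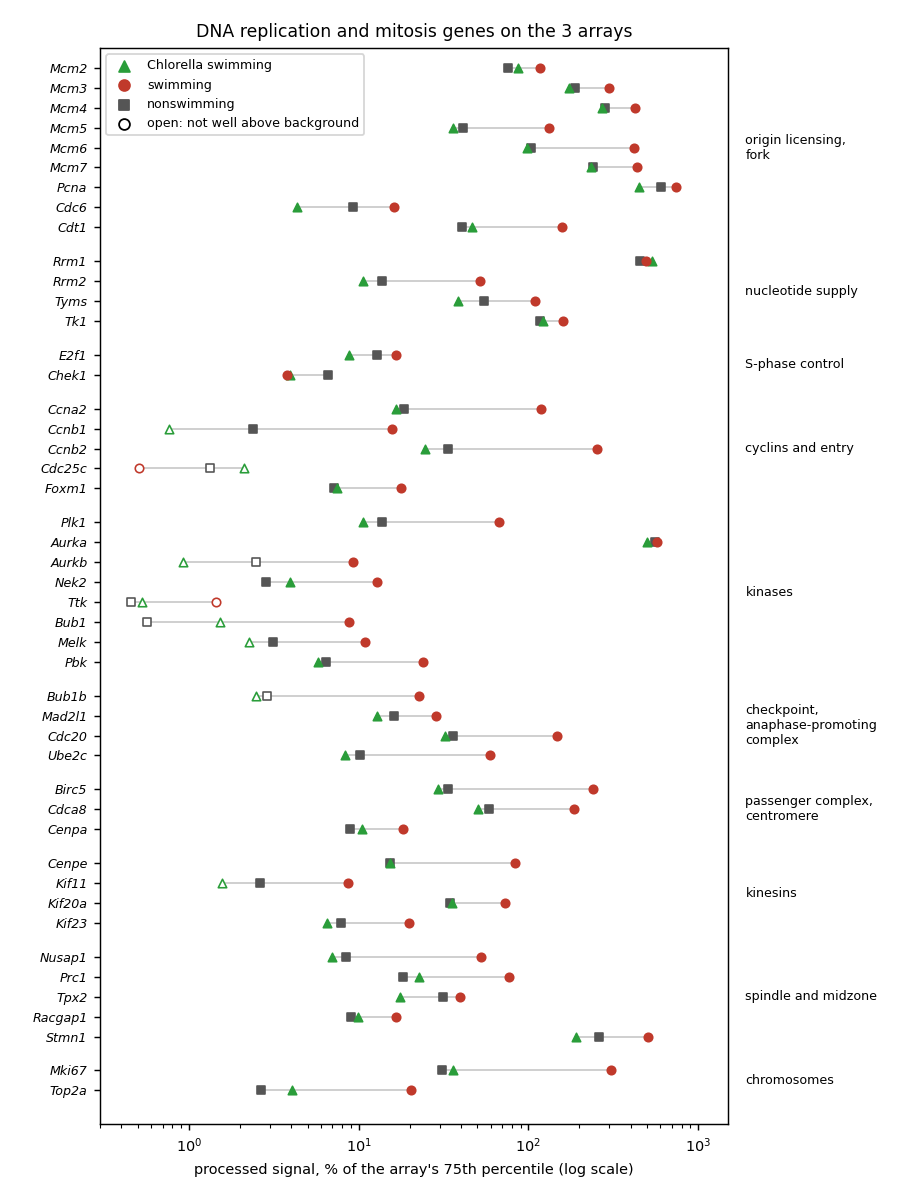
Signal of each of the 46 genes on the Chlorella swimming (triangles), swimming (circles) and nonswimming (squares) arrays, on a log axis in percent of the array's 75th percentile, grouped by role; open symbols are probes not well above background. For 36 of the 38 genes above background on all 3 arrays the circle lies farthest to the right.

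A gene counts as measured in a comparison where its probe was well above background on both arrays, and as called where its 2 signals then differed 2-fold or more. Swimming against nonswimming gave 25 of 41 measured genes called higher and none called lower on the swimming array. The background for these counts, over all 15662 measured genes, was 5.14% called higher and 1.07% called lower. The median log2 ratio of the 41 genes was 1.66, where that of all genes was -0.04, and 40 of the 41 ratios were above 0. Each ratio carries the error that the scanner software gave its spots, which was 0.21 log2 at the median over these genes and does not include the spread between mice or arrays. The ratio lay beyond the 95% limit of that error for 36 of the 41.

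Chlorella swimming against swimming gave the opposite picture. None of 38 measured genes was called higher on the Chlorella swimming array and 26 were called lower, where the background over 15508 genes was 1.37% called higher and 4.86% called lower. The median log2 ratio was -1.66, where that of all genes was 0.08. This comparison and the one above share the swimming array, so both hold its deviations with opposite sign and they are not independent of each other.

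Chlorella swimming against nonswimming, which does not use the swimming array, left small differences. None of 38 genes was called higher on the Chlorella swimming array and 1, Cdc6, was called lower, where the background over 15336 genes was 2.07% called higher and 1.49% called lower. The median log2 ratio was -0.16, where that of all genes was 0.04. The ratio lay within its scanner error for 19 of the 38 genes and within the 95% limit of that error for 30. The extremes were Top2a, with 0.61 ± 0.39, and Cdc6, with -1.10 ± 0.28 (log2, scanner error).

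**Figure D2:**
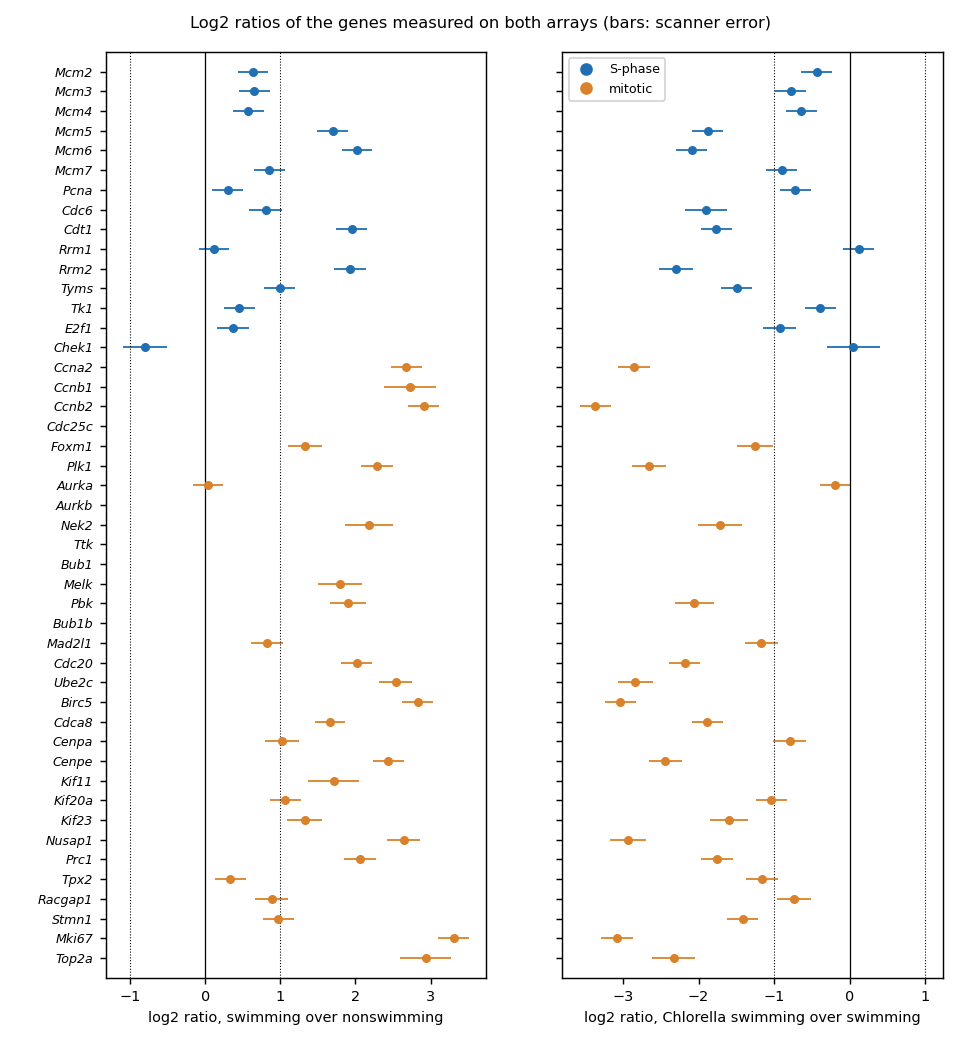
Log2 ratio of each gene measured on both arrays, swimming over nonswimming on the left and Chlorella swimming over swimming on the right, with the scanner error as bars, S-phase genes in blue, mitotic genes in orange and dotted lines at the 2-fold limits. In the left panel 40 of 41 points lie above 0, and in the right panel 36 of 38 lie below it.

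The mitotic genes had larger ratios than the S-phase genes on the swimming array, a difference that could not be tested with 1 array per group. Against nonswimming, 21 of 26 measured mitotic genes and 4 of 15 S-phase genes were called higher, with median ratios of 3.89-fold for mitotic and 1.57-fold for S-phase genes. Chlorella swimming against swimming, 20 of 23 mitotic genes and 6 of 15 S-phase genes were called lower, with median log2 ratios of -1.89 for mitotic and -0.90 for S-phase genes. Between Chlorella swimming and nonswimming the medians were close, at -0.17 for mitotic and -0.13 for S-phase genes. The difference between the classes was smaller with another background correction and similar with a limit on brightness. With normexp correction and an offset of 50, which shrinks ratios of dim probes towards 0, the mitotic median minus the S-phase median for swimming against nonswimming was 0.25 log2, where it was 1.31 with the scanner's own correction. Probe brightness moved with the class: of the 19 brighter genes 11 were S-phase genes and the median ratio was 0.99, and of the 19 dimmer genes 4 were S-phase genes and the median was 1.90. With the scanner's own correction and only probes of at least 50 intensity units on both arrays, which left 11 mitotic and 11 S-phase genes, the mitotic median was 2.02 and the S-phase median 0.65, a difference of 1.37. For Chlorella swimming over swimming the same limit gave a difference of -1.11, where it was -0.98 without it. That limit did not match the 2 classes in brightness and was not combined with normexp correction. The part of brightness in the difference was therefore not tested.

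**Figure D3:**
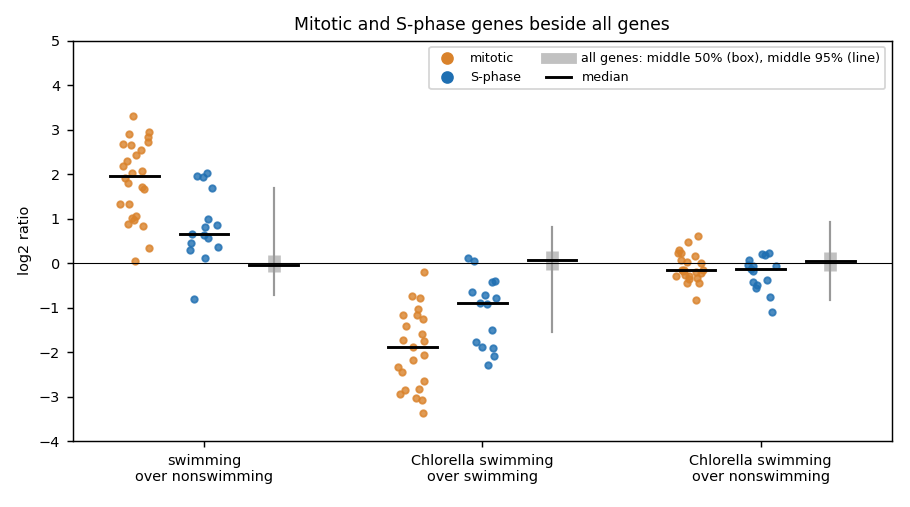
Log2 ratios of the mitotic (orange) and S-phase (blue) genes in each comparison, 1 point per gene, beside the middle 50% and 95% of all genes (grey), with medians as black lines. The mitotic median corresponds to 3.89-fold for swimming over nonswimming and is -0.17 log2 for Chlorella swimming over nonswimming.

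Promoter letters, which use no value of the arrays, differed between the 2 classes. RefSeq promoters of 300 bases (250 before and 50 after the gene start, build GRCm38.p6) were at hand for 37 of the 46 genes, as 15 promoters of 14 S-phase genes and 24 promoters of 23 mitotic genes. Each was searched on both strands for the letters of an E2F site (TTTCCCGC, TTTGGCGC, TTTCGCGC or TTTGCCGC), of a CHR element (TTTGAA or TTCGAA), which the MuvB complex binds, and of a CCAAT box, which the factor NF-Y binds. E2F sites were found in none of 24 mitotic promoters and in 6 of 15 S-phase promoters (40%), where 2.265% of all 32851 promoters in the table held one. CHR letters were found in 17 of 24 mitotic promoters (70.83%) and in 2 of 15 S-phase promoters (13.33%), where 19.23% of all promoters held them. All 17 of these mitotic promoters also had a CCAAT box, a pair that 7.525% of all promoters held. The CHR matches in the mitotic promoters lay at 22 distinct places, of which 15 were within 50 bases of a gene start. A match is a description of letters, not a binding site.

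**Figure D4:**
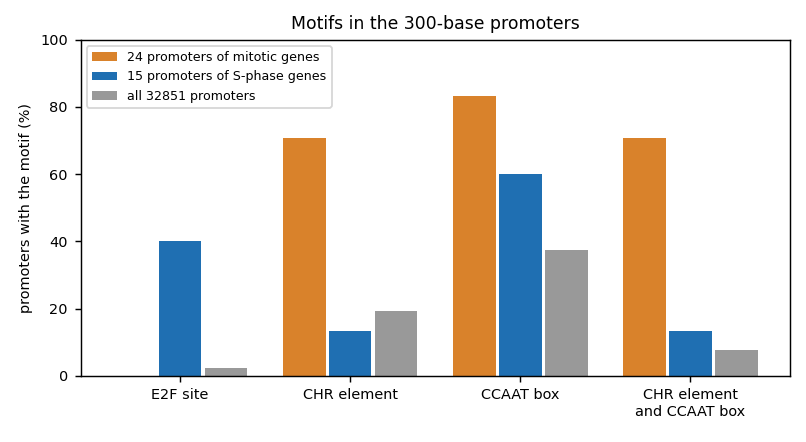
Share of promoters with each motif, in percent, for 24 promoters of mitotic genes (orange), 15 promoters of S-phase genes (blue) and all 32851 promoters in the table (grey). The CHR element stands at 70.83% in mitotic and 13.33% in S-phase promoters, and the E2F site at 40% in S-phase promoters and 0 in mitotic ones.

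The following stretches show these motifs in the genes with the highest swimming over nonswimming ratios of each class that held an E2F site or a CHR element within the 170 bases before the start, and in Rrm1, whose signal hardly differed and which held neither. Each runs 5′ to 3′ along the gene and ends at the base before the start, with E2F sites, CHR elements and CCAAT boxes on either strand in capitals. The 2 E2F matches nearest to each other overlap in Mcm6 and in Mcm5. Positions are on GRCm38.p6: Mcm6 at chr1:128359706-128359875 on the minus strand, Mcm5 at chr8:75109339-75109508 on the plus strand, Rrm1 at chr7:102441525-102441694 on the plus strand, Mki67 at chr7:135716380-135716549 on the minus strand, Top2a at chr11:99024190-99024359 on the minus strand, Ccnb2 at chr9:70421555-70421724 on the minus strand and Ube2c at chr2:164769759-164769928 on the plus strand.
Mcm6: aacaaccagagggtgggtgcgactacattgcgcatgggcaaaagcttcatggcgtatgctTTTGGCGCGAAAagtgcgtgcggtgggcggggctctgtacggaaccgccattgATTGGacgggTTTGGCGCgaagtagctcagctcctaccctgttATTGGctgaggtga
Mcm5: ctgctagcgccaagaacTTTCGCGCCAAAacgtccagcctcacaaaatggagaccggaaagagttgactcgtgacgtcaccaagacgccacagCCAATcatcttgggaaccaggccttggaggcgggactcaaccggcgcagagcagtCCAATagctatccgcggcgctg
Rrm1: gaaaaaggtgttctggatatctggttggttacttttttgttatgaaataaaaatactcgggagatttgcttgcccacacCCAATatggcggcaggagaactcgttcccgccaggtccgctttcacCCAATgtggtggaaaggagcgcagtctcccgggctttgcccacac
Mki67: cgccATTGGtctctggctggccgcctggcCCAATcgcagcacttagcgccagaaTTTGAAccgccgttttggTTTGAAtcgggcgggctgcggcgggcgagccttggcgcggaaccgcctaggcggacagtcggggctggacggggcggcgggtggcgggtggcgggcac
Top2a: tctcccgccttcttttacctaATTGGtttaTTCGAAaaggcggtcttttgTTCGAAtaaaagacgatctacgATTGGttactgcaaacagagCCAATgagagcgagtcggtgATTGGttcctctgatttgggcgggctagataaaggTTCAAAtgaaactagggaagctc
Ccnb2: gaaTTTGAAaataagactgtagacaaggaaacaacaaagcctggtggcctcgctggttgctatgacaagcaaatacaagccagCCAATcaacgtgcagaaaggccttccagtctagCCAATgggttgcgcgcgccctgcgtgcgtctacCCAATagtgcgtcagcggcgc
Ube2c: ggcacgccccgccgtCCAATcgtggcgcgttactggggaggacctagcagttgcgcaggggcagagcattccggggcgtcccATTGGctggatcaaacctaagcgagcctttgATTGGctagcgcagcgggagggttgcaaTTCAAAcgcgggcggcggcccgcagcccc

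In Mcm6 the E2F letters began 110, 106 and 47 bases before the start, and in Mki67 the CHR letters began 116 and 98 bases before it. Swimming over nonswimming, the 15 measured genes with CHR letters had a median log2 ratio of 1.71 and the 19 without them one of 1.70. The 2 groups differ in class, since 2 of 18 genes with CHR letters and 12 of 19 without them are S-phase genes, and the letters were not compared within a class. The 6 genes with an E2F site, all S-phase genes, had a median of 1.27, with a range of 0.65 to 2.02. Aurka, with CHR letters 33 bases after its start and a pair of CCAAT boxes, hardly differed between arrays. Among the genes that held neither an E2F site nor CHR letters, Rrm1 hardly differed, but Birc5 had a log2 ratio of 2.83 for swimming over nonswimming.

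Among the genes that license origins and travel with the fork, all 9 had a higher signal on the swimming array than on the other 2 arrays in the scanner values (Cdc6 did not in the authors' deposited table), and 3 were called higher against nonswimming. Mcm6, a subunit of the replicative helicase, had a signal of 98.6 in Chlorella swimming, 421 in swimming and 103 in nonswimming muscle. The swimming array alone was high, with a log2 ratio of 2.02 ± 0.20 over nonswimming, and the other 2 arrays differed by -0.07 ± 0.20. Cdt1, which loads the helicase onto origins, had 46.4 (Chlorella swimming), 158 (swimming) and 40.9 (nonswimming) and a log2 ratio of 1.95 ± 0.21 over nonswimming. Mcm5, another helicase subunit, had 36.2 (Chlorella swimming), 133 (swimming) and 41.1 (nonswimming), with a ratio of 1.70 ± 0.20. These 3 genes shared the pattern of 1 high and 2 similar arrays.

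The other 4 helicase subunits, Mcm2, Mcm3, Mcm4 and Mcm7, had log2 ratios of 0.57 to 0.85 over nonswimming, below the 2-fold limit, although the 6 subunits form 1 complex. Mcm4 had a signal of 271 (Chlorella swimming), 423 (swimming) and 284 (nonswimming), and its second probe was below background on all 3 arrays. Mcm2 had a signal of 86.9 in Chlorella swimming, 118 in swimming and 75.6 in nonswimming muscle. Pcna, the sliding clamp, had 450 (Chlorella swimming), 741 (swimming) and 603 (nonswimming), so the Chlorella swimming array was the low one, with a log2 ratio of -0.42 ± 0.20 to nonswimming. Cdc6, the other loader of the helicase, was the single gene called lower on the Chlorella swimming than on the nonswimming array. Its signal was 4.33 in Chlorella swimming, 16.2 in swimming and 9.27 in nonswimming muscle, all dim. A second Cdc6 probe had 1.58 (Chlorella swimming), 6.73 (swimming) and 2.10 (nonswimming). That probe was highest on the swimming array too and was above background on that array only. With normexp correction or the stricter filter on dim probes Cdc6 was no longer called in that comparison. In the authors' deposited table its ratio for swimming over nonswimming was -1.30, of the opposite sign to the 0.80 from the scanner values, so its order on the swimming array is not settled.

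The enzymes that supply nucleotides were split. Rrm2, the small subunit of ribonucleotide reductase that is made in S phase, had a signal of 10.6 in Chlorella swimming, 52.0 in swimming and 13.7 in nonswimming muscle. Its log2 ratio was 1.92 ± 0.21 for swimming over nonswimming and -2.30 ± 0.22 for Chlorella swimming over swimming. Rrm1, the large subunit of the same enzyme, had 533 (Chlorella swimming), 492 (swimming) and 454 (nonswimming). Its log2 ratio was 0.12 ± 0.20 for swimming over nonswimming and 0.11 ± 0.20 for Chlorella swimming over swimming, both within the scanner error, and 0.23 ± 0.20 for Chlorella swimming over nonswimming, just beyond it. Tyms, which makes thymidylate, had 38.7 (Chlorella swimming), 109 (swimming) and 54.7 (nonswimming), and its ratio of 0.99 ± 0.20 over nonswimming lay just under the 2-fold limit. Tk1, the salvage kinase of thymidine, had 122 (Chlorella swimming), 160 (swimming) and 117 (nonswimming), with a ratio of 0.45 ± 0.20.

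The 2 S-phase control genes were not called in any comparison. E2f1, the factor for which E2F sites are named, had a signal of 8.73 in Chlorella swimming, 16.6 in swimming and 12.9 in nonswimming muscle. A second E2f1 probe, averaged over 7 spots of the Chlorella swimming, 10 of the swimming and 9 of the nonswimming array, had 5.36 (Chlorella swimming), 8.23 (swimming) and 5.24 (nonswimming), again highest on the swimming array. Chek1, the kinase that holds back mitosis while DNA is damaged or unreplicated, had 3.92 (Chlorella swimming), 3.79 (swimming) and 6.60 (nonswimming). It was the only measured gene below 0 for swimming over nonswimming, with -0.80 ± 0.29, but its second probe was not well above background on any array.

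All 4 measured mitotic cyclin and entry genes were called higher on the swimming than on the nonswimming array. Ccnb2, cyclin B2, had a signal of 24.4 in Chlorella swimming, 252 in swimming and 33.6 in nonswimming muscle. Its log2 ratio of -3.37 ± 0.21 for Chlorella swimming over swimming was the lowest of the 38 measured genes. Ccna2, cyclin A2, which acts in S phase and G2, had 16.5 (Chlorella swimming), 119 (swimming) and 18.6 (nonswimming), with a ratio of 2.68 ± 0.21 for swimming over nonswimming. Foxm1, the factor that turns on G2 and mitosis genes, had 7.49 (Chlorella swimming), 17.9 (swimming) and 7.12 (nonswimming), and its ratio over nonswimming was 1.33 ± 0.23. Ccnb1, cyclin B1, had 0.766 (Chlorella swimming), 15.7 (swimming) and 2.37 (nonswimming). It had a ratio of 2.72 ± 0.35 over nonswimming and was not well above background on the Chlorella swimming array, where it was at least 5.94-fold lower than on the swimming array. Such bounds set the bright signal against the lowest one well above background on the dim array. Where the dim probe's own signal was higher than that, its plain ratio is given, which is not a lower limit. Cdc25c, the phosphatase that activates CDK1, had 2.10 (Chlorella swimming), 0.511 (swimming) and 1.34 (nonswimming) on the probe with the higher mean, none well above background. Its other probe had 0.554 (Chlorella swimming), 2.94 (swimming) and 0.690 (nonswimming), well above background on the swimming array only. With normexp correction Foxm1 (0.52) and Ccnb1 (0.72) fell under the limit, which left 2 of the 4 calls.

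Among the mitotic kinases, 4 of 5 measured genes were called higher on the swimming than on the nonswimming array. Plk1, polo-like kinase 1, had a signal of 10.7 in Chlorella swimming, 67.2 in swimming and 13.7 in nonswimming muscle, a log2 ratio of 2.29 ± 0.22 over nonswimming. Nek2, a kinase that separates centrosomes, had 3.92 (Chlorella swimming), 12.9 (swimming) and 2.84 (nonswimming), with a ratio of 2.18 ± 0.32. Pbk and Melk, kinases of dividing cells, had ratios of 1.90 ± 0.24 and 1.79 ± 0.30. Melk had 2.27 (Chlorella swimming), 10.9 (swimming) and 3.14 (nonswimming), and the first of these was not well above background, at least 4.13-fold below swimming. With normexp correction the ratios of Nek2 (0.57), Pbk (0.72) and Melk (0.41) fell under the limit and 1 call, that of Plk1, was left.

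Aurka, aurora kinase A of the spindle poles, stood apart from the other mitotic genes. Its signal was 503 in Chlorella swimming, 574 in swimming and 559 in nonswimming muscle. Its ratio over nonswimming was 0.04 ± 0.20, the lowest of the 26 measured mitotic genes, and 1 probe carries its symbol. Aurkb, aurora kinase B of the passenger complex, was well above background on the swimming array only, with 0.926 (Chlorella swimming), 9.21 (swimming) and 2.47 (nonswimming). Its ratio of 3.73-fold over nonswimming uses its own dim signal there, with a scanner error of 0.46 log2, and is not a lower limit. Bub1, a checkpoint kinase, was likewise well above background on the swimming array only, with 1.52 (Chlorella swimming), 8.76 (swimming) and 0.567 (nonswimming), at least 3.88-fold above nonswimming. The Chlorella swimming array was at least 3.50-fold below the swimming array for Aurkb and at least 3.33-fold below it for Bub1. Ttk, the kinase MPS1, had 0.530 (Chlorella swimming), 1.45 (swimming) and 0.457 (nonswimming), none well above background.

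The genes of the spindle checkpoint and of the anaphase-promoting complex were all highest on the swimming array. Ube2c, the ubiquitin-conjugating enzyme of that complex, had a signal of 8.28 in Chlorella swimming, 59.0 in swimming and 10.2 in nonswimming muscle. Cdc20, its activator, had 32.2 (Chlorella swimming), 147 (swimming) and 36.1 (nonswimming). Their log2 ratios over nonswimming were 2.54 ± 0.22 for Ube2c and 2.02 ± 0.21 for Cdc20. Mad2l1, a checkpoint protein that binds CDC20, had 12.8 (Chlorella swimming), 28.7 (swimming) and 16.2 (nonswimming), with a smaller ratio of 0.83 ± 0.21, and a second probe gave 0.98. Bub1b, which encodes the checkpoint protein BUBR1, was well above background on the swimming array only, with 2.49 (Chlorella swimming), 22.8 (swimming) and 2.88 (nonswimming). Its ratio of 7.91-fold over nonswimming uses its own dim signal there, with a scanner error of 0.36 log2, and is not a lower limit. The Chlorella swimming array was at least 8.64-fold lower than the swimming array for Bub1b.

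The passenger complex and centromere genes were called higher on the swimming than on the nonswimming array, 3 of 3. Birc5, survivin, which holds the passenger complex at the centromere, had a signal of 29.4 in Chlorella swimming, 241 in swimming and 33.8 in nonswimming muscle. Its log2 ratios were 2.83 ± 0.21 for swimming over nonswimming and -3.03 ± 0.21 for Chlorella swimming over swimming. Cdca8, borealin of the same complex, had 50.4 (Chlorella swimming), 186 (swimming) and 59.0 (nonswimming). Cenpa, the histone H3 variant of centromeres, had 10.5 (Chlorella swimming), 18.1 (swimming) and 8.94 (nonswimming) and lay just past the limit, with a ratio of 1.02 ± 0.22 over nonswimming. That call ended with median centring and with quantile normalization (0.87 with each) and with normexp correction (0.34), which left 2 of 3.

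All 4 kinesins, motors that move along microtubules, were called higher on the swimming than on the nonswimming array. Cenpe, which carries chromosomes to the spindle equator, had a signal of 15.4 in Chlorella swimming, 83.5 in swimming and 15.4 in nonswimming muscle, so the swimming array alone was high, with a log2 ratio of 2.44 ± 0.21 over nonswimming. Kif23, a motor of the midzone where the cell divides, had 6.54 (Chlorella swimming), 19.8 (swimming) and 7.89 (nonswimming). Kif20a, another midzone kinesin, had 35.3 (Chlorella swimming), 72.4 (swimming) and 34.6 (nonswimming), with the smallest ratio of the 4, 1.07 ± 0.21. Kif11, which pushes the spindle poles apart, had dim signals of 1.56 (Chlorella swimming), 8.61 (swimming) and 2.62 (nonswimming) and a ratio of 1.71 ± 0.34 over nonswimming. It was not well above background on the Chlorella swimming array, at least 3.27-fold lower than on the swimming array. With normexp correction Kif11 (0.35), Kif20a (0.73) and Kif23 (0.48) fell under the limit and 1 call, that of Cenpe, was left. Kif20a also fell under it with median centring (0.91) and as the mean of its probes (0.99).

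Of the spindle and midzone genes, 2 of 5 were called higher on the swimming than on the nonswimming array. Nusap1, which bundles spindle microtubules, had a signal of 6.93 in Chlorella swimming, 52.9 in swimming and 8.48 in nonswimming muscle, with a log2 ratio of 2.64 ± 0.22 over nonswimming. Prc1, the crosslinker of midzone microtubules, had 22.7 (Chlorella swimming), 76.7 (swimming) and 18.4 (nonswimming), with a ratio of 2.06 ± 0.21. Stmn1, the microtubule destabiliser stathmin, had 191 (Chlorella swimming), 510 (swimming) and 260 (nonswimming), and its ratio of 0.97 ± 0.20 lay just under the limit. A second, dimmer Stmn1 probe, well above background on all 3 arrays, gave 1.11, past the limit. Racgap1, part of the centralspindlin complex with KIF23, had a ratio of 0.89 ± 0.22. Tpx2, the activator of aurora kinase A, had 17.6 (Chlorella swimming), 39.5 (swimming) and 31.4 (nonswimming), the smallest ratio of the group over nonswimming, 0.33 ± 0.21. For Tpx2 the Chlorella swimming array was the one apart, with a ratio of -0.83 ± 0.21 to nonswimming.

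The 2 chromosome genes had the highest measured ratios of the set for swimming over nonswimming. Mki67 encodes Ki-67, a coat protein of mitotic chromosomes and the usual marker of cycling cells. Its signal was 36.2 in Chlorella swimming, 306 in swimming and 30.9 in nonswimming muscle. The swimming array was 9.89-fold above nonswimming, and a second probe of Mki67 gave a log2 ratio of 3.37, where the brighter one gave 3.31. Top2a, topoisomerase II alpha, which untangles replicated DNA, had 4.08 (Chlorella swimming), 20.5 (swimming) and 2.68 (nonswimming). Its nonswimming signal lay close to the lowest one well above background on that array, 2.26, so the size of its ratio of 2.94 ± 0.34 is uncertain, and with normexp correction it was 0.88.

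Where a gene had several measured probes, they gave the same direction for swimming over nonswimming in 8 of 8 genes and for Chlorella swimming over nonswimming, where ratios were small, in 6 of 8. For swimming over nonswimming the largest difference between probes was 0.28 log2, for E2f1. Probes not well above background on both arrays gave ratios of the opposite sign in Cdc25c, Cdca8, Cenpa, Chek1, Kif11, Mcm4, Melk, Nusap1, Rrm1, Top2a and Tyms. Of the 14 probes whose accession is not in the RefSeq table, 8 were below background on every array, against 6 of the other 60.

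Other genes of the same processes, on lists that exclude the 46, were split alike into smaller ratios of replication and larger ratios of mitosis genes. These lists too were chosen with earlier results of these data known. They were not recomputed with normexp correction or a limit on brightness. Of 37 measured replication genes, 7 were called higher and none was called lower for swimming over nonswimming, with a median log2 ratio of 0.48. Of 28 measured mitosis genes, 18 were called higher and none was called lower, with a median of 1.36. The largest ratios of the first list were those of Uhrf1, which recruits the maintenance DNA methyltransferase (2.23), and of the histone chaperones Asf1b (1.89) and Chaf1b (1.63). Those of the second were Ncapg, a condensin subunit (3.07), Cenpf, a kinetochore protein (3.05), and Cdkn3, a phosphatase of cyclin-dependent kinases (2.68). Chlorella swimming over swimming, 10 of 37 replication genes and 19 of 27 mitosis genes were called lower, with medians of -0.49 for replication and -1.36 for mitosis genes. Between Chlorella swimming and nonswimming the medians were -0.03 for replication and -0.05 for mitosis genes.

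Lists of cyclin D genes and their kinases, of inhibitors and pocket proteins, and of other E2F genes had smaller medians for swimming over nonswimming. The median of the first list, 0.38, was close to the 0.48 of the replication genes. Single genes in these lists reached or came close to the limit. For swimming over nonswimming none of the 5 cyclin D genes and their kinases was called, with a median of 0.38. None of 14 measured inhibitors and pocket proteins was called either, with a median of 0.01. The highest ratio of each list lay just under the limit, 0.9998 for Cdk6 in the first and 0.99 for Cdkn2c in the second. Of the E2F family beyond E2f1, E2f2 was the single one of 5 measured genes past the limit, with a signal of 88.6 in Chlorella swimming, 304 in swimming and 84.9 in nonswimming muscle. E2f8, a repressor of the family, was not well above background on the nonswimming array and was high on both others, with 10.6 (Chlorella swimming), 9.39 (swimming) and 2.14 (nonswimming), at least 4.70-fold above nonswimming for Chlorella swimming and at least 4.16-fold for swimming. Cdkn1a, which encodes the kinase inhibitor p21, followed another pattern, with 177 (Chlorella swimming), 48.9 (swimming) and 53.2 (nonswimming). It was 1.86 log2 higher on the Chlorella swimming array than on the swimming array and 1.73 higher than on the nonswimming array. Btg2, an antiproliferative gene, was also highest on the Chlorella swimming array, 1.40 log2 above nonswimming, but was not called against the swimming array.

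Markers of blood-forming and blood cells moved with the set on the swimming array. The summed signal of the 46 genes was 3190 in Chlorella swimming, 6600 in swimming and 3487 in nonswimming muscle. Bright genes weigh most in such a sum, also those that hardly differed. Aurka had 503 (Chlorella swimming), 574 (swimming) and 559 (nonswimming), and Rrm1 had 533 (Chlorella swimming), 492 (swimming) and 454 (nonswimming). That of 6 granulocyte precursor genes was 19.7 (Chlorella swimming), 1854 (swimming) and 155 (nonswimming), with 2 (Chlorella swimming), 6 (swimming) and 5 (nonswimming) genes well above background. That of 9 neutrophil genes was 348 (Chlorella swimming), 26483 (swimming) and 1553 (nonswimming). Erythroid precursor genes summed to 230 (Chlorella swimming), 1773 (swimming) and 373 (nonswimming), precursor B cell genes to 63.2 (Chlorella swimming), 322 (swimming) and 71.5 (nonswimming), B cell genes to 32.7 (Chlorella swimming), 562 (swimming) and 44.8 (nonswimming), megakaryocyte and platelet genes to 340 (Chlorella swimming), 1115 (swimming) and 490 (nonswimming), and T cell genes to 24.2 (Chlorella swimming), 77.0 (swimming) and 23.5 (nonswimming). All these lists were highest on the swimming array, and their part in the replication and mitosis result was not tested.

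For Chlorella swimming over nonswimming the blood lists had median log2 ratios of -3.08 (2 measured granulocyte precursor genes), -2.25 (8 neutrophil genes), -0.60 (3 erythroid precursor genes), -0.58 (4 megakaryocyte and platelet genes), -0.44 (3 precursor B cell genes), -0.42 (3 B cell genes) and 0.15 (3 T cell genes), where the median of the 38 measured replication and mitosis genes was -0.16. The granulocyte lists were farthest from the set. Mpo, myeloperoxidase of granulocyte precursors, had a signal of 11.3 in Chlorella swimming, 1178 in swimming and 90.1 in nonswimming muscle, and Ctsg, cathepsin G, had 5.1 (Chlorella swimming), 499 (swimming) and 46.2 (nonswimming). For Chlorella swimming over nonswimming the log2 ratio was -2.99 for Mpo and -3.17 for Ctsg. Satellite cells of the muscle can divide too, and their part in the replication and mitosis result was not tested. The median log2 ratio of 10 measured satellite cell and myoblast genes was 0.05 for swimming over nonswimming, 0.33 for Chlorella swimming over swimming and 0.42 for Chlorella swimming over nonswimming. Myod1, a myoblast factor, was lowest in that list for swimming over nonswimming, with -0.63, and Myf5 was not well above background on any array. Pax7, the defining factor of satellite cells, had 10.2 (Chlorella swimming), 7.96 (swimming) and 7.28 (nonswimming). Vcam1, which other cells also make, passed the limit, with 1.26 for swimming over nonswimming.

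Other cell types differed between the arrays as well. Adipocyte genes summed to 34480 in Chlorella swimming, 51237 in swimming and 26377 in nonswimming muscle. Of 6 measured adipocyte genes 4 were called higher for swimming over nonswimming, with a median log2 ratio of 1.22. For Chlorella swimming over swimming 3 of the 6 were called lower, with a median of -1.09. The part of adipocytes in the replication and mitosis result was not tested. Macrophage genes summed to 4537 (Chlorella swimming), 11716 (swimming) and 8311 (nonswimming). For swimming over nonswimming none of 7 was called, the median log2 ratio was -0.07 and the highest, that of Lyz2, which neutrophils also make, was 0.56. Bone genes summed to 8607 (Chlorella swimming), 8016 (swimming) and 7251 (nonswimming), a sum that includes the matrix gene Col1a1, with log2 ratios of -0.12 for swimming over nonswimming and 0.41 for Chlorella swimming over swimming. Of 5 measured bone genes 3 were called higher for swimming over nonswimming (median 1.40) and 3 were called lower for Chlorella swimming over swimming (median -3.20), so most of that list was high on the swimming array too, and its part in the replication and mitosis result was not tested. Keratinocyte genes summed to 227 (Chlorella swimming), 198 (swimming) and 787 (nonswimming). Endothelial genes summed to 1893 (Chlorella swimming), 1578 (swimming) and 1939 (nonswimming).

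**Figure D5:**
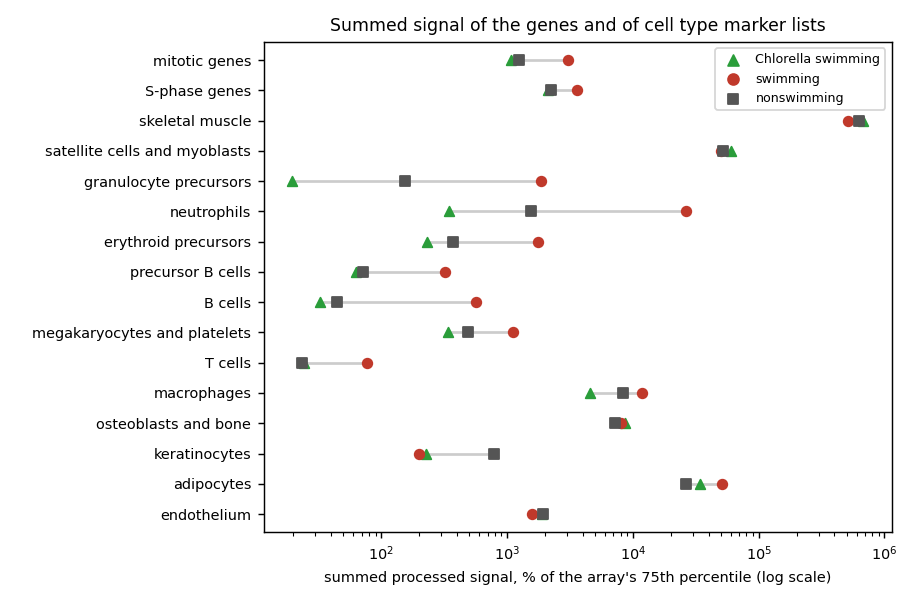
Summed signal of the 31 mitotic and 15 S-phase genes and of each cell type marker list on the Chlorella swimming (triangles), swimming (circles) and nonswimming (squares) arrays, on a log axis in percent of the array's 75th percentile. The granulocyte precursor list lies at 19.7 on the Chlorella swimming array and 155 on the nonswimming array, while the mitotic genes lie at 1073 on the Chlorella swimming array and 1241 on the nonswimming array. Bright genes weigh most in these sums, such as Aurka, with 503 on the Chlorella swimming array and 559 on the nonswimming array.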

How the data were processed

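Per the labels' protocols, muscle RNA of 10 mice was pooled for each group, Cy3-labelled and put on 1 single-colour Agilent array. The deposited scanner files hold intensity values (the submitters' processing notes name Agilent Feature Extraction 9.5): a processed signal, already background-subtracted, its error, and flags for spots well above background. The authors' deposited value table holds log2 values of 13683 probes, 27 of the 46 genes among them. Its rows matched scanner features by number, its differences between arrays correlated with those of the scanner files (r of 0.71 to 0.82), and what each probe was centred on is not given, so it served as an alternative through differences between its columns.

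The 46 genes and all lists were chosen with earlier results of these data known. Control spots and flagged outliers were left out and spots of one probe averaged. Log2 processed signals were scaled to each array's 75th percentile. Each gene was read from its brightest probe. Genes other than the 46 were named through RefSeq (22888 probes by accession, 6644 by symbol, 3109 by an older symbol), and 8454 kept the file's name. With 1 array per group no test was possible. A gene was called by size alone, where its signals differed 2-fold or more and both arrays were well above background. Where only 1 array was, it has a bound, or the plain ratio if its dim signal was above the lowest one well above background. The counting was tested on simulated data. The number of arrays limits precision. Named with full values were, per role, the 2 largest and the smallest absolute swimming over nonswimming ratio among genes above background on all 3 arrays, every gene below background on an array and every gene whose probes differed in sign; of other lists, up to 3 genes past 2-fold. Further genes of the set were given with values to account for every member. Btg2, Cdk6, Cdkn2c, Pax7, Myf5, E2f8, Myod1, Lyz2 and Col1a1, chosen after their values were seen, were given beside their lists. Alternatives tried for scaling were quantiles, cyclic loess, the median and the percentile of probes well above background on all arrays. Normexp correction, no filter on dim probes and a stricter filter on them (at least 50 intensity units before scaling) were further alternatives. So were the mean over probes, the authors' table, a 3-fold limit, the 95% limit of the scanner error, and genes at their bound. Tools were Python 3.11.15, pandas 2.3.3, R 4.3.3 and limma 3.58.1. Probe coordinates are not printed, since the sources used here do not give their build; promoters are RefSeq's, on GRCm38.p6.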

Additional observations from a re-analysis of the deposited data

How the results depend on the processing

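No paired analysis was possible because each group is 1 array. The counts called over the set, by class and by role, and the medians over the set and by class were recomputed under the alternatives; the counts by highest array were not. The median of all 46 genes that were measured ranged from 0.72 to 1.91 for swimming over nonswimming, from -1.79 to -0.77 for Chlorella swimming over swimming and from -0.18 to -0.01 for Chlorella swimming over nonswimming. No median at least 2-fold in size changed direction. The S-phase medians were smaller than that and were not covered by this rule, and a count has no direction to change. With normexp correction, whose offset of 50 shrinks ratios of dim probes by construction, 15 genes (11 mitotic) were at least 2-fold higher for swimming over nonswimming, with medians of 0.72 over the set and 0.80 over mitotic genes and a difference between mitotic and S-phase medians of 0.25. Under it, Chlorella swimming over swimming had 17 genes (12 mitotic) lower, medians of -0.77 and -1.03 and a difference of -0.29, and Chlorella swimming over nonswimming had 0 lower. The stricter filter left 22 genes with 11 higher (8 mitotic) and a median of 1.03 for swimming over nonswimming, 20 genes with 12 lower (8 mitotic) for Chlorella swimming over swimming, and 0 lower for Chlorella swimming over nonswimming. Without a filter, 1 gene was lower for swimming over nonswimming, 1 was higher for Chlorella swimming over swimming, whose mitotic median was -2.19 and difference -1.28, and 1 was higher and 3 lower (2 mitotic) for Chlorella swimming over nonswimming. In the authors' deposited table, with 27 of the genes, 1, Cdc6 (-1.30), was lower for swimming over nonswimming, with medians of 1.91 over the set and 0.86 over S-phase genes; the cause was not tested. At 3-fold, 0 were lower for Chlorella swimming over nonswimming. Median ratios of all genes ranged from -0.19 to 0.02, from -0.01 to 0.21 and from 0 to 0.11 in the 3 comparisons across these settings. The counts of all genes at least 2-fold different also moved, to 324 to 2104 higher for swimming over nonswimming (805 as reported) and 279 to 1998 lower for Chlorella swimming over swimming (754 as reported). With 1 array of pooled RNA per group, no value holds the spread between mice, and 8 of the 46 genes were not well above background on every array.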
